A study of Danio rerio with 30 samples.

Results

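Presomitic mesoderm is the band of unsegmented mesoderm on either side of the notochord from which zebrafish somites are cut at regular intervals. It was examined here in whole embryos at 12 hours post fertilization (hpf), profiled by droplet single-cell RNA sequencing. Member cells were chosen by detection of transcripts. A barcode counted as a member if it held at least 1000 unique molecular identifiers (UMIs, each 1 counted RNA molecule) and at most 10% mitochondrial UMIs. It also needed at least 1 UMI in 3 or more of msgn1, tbx6, tbx16, her1 and her7, and UMIs in fewer than 2 of the tailbud genes eve1, hoxa13b and bmp2a. The rule found 5004 members among the 64631 barcodes kept, or 7.74%.

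The series asks how xbp1, atf6, creb3l1 and creb3l2, transcription factors of the unfolded protein response, act in the embryo, and each was removed alone or jointly. All embryos were of the TL/AB strain and embryos were pooled for each library. Factors were removed by injecting Cas9 protein and guide RNAs at the start of development, which gives mosaic embryos called crispants. For creb3l1 there was a heritable mutant line besides. The 12 groups make up 16 libraries. The control, tyr, had its guides aimed at the pigment enzyme tyrosinase and had 2 libraries. So did wild type embryos with no injection, creb3l1 mutants, and the quadruple group, which lost 4 factors at once. The other groups had 1 library each: atf6-cr, xbp1-cr, creb3l1-cr, creb3l2-cr, xbp1+atf6-cr, creb3l2+creb3l1-cr, atf6+creb3l2+creb3l1-cr and xbp1+creb3l2+creb3l1-cr. The combinations that hold creb3l1, quadruple included, were made in the creb3l1 mutant line, so only creb3l1-cr lost creb3l1 outside it. The wild type and creb3l1 mutant libraries are the 4 taken as not injected. Group sizes are those of the libraries analysed here. Loss of xbp1 or of atf6 is thus carried by 5 libraries each, loss of creb3l2 by 6, loss of creb3l1 by 8 and injection by 12. The deposited files carry a set letter, A or B, with 8 libraries in each, and the headers give a different Cell Ranger version for each set. No label says that replicate libraries came from separate clutches, so p-values measure the spread between these libraries only.

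New mesoderm leaves the tailbud, where Fgf and Wnt signals are strong, and moves forward relative to them as the body grows. While it does so, its cells switch Notch-linked repressors of the her family on and off together, a rhythm known as the segmentation clock. Toward the front, Fgf and Wnt fall and retinoic acid rises, and Tbx6, Mesp and Ripply proteins mark the place of the next boundary. Cells next to the notochord, the adaxial cells, begin the muscle programme early through myod1 and myf5.

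Depth differed by set, which cannot be told apart from the Cell Ranger version. Member cells held a median of 12182 to 15085 UMIs in the libraries of set A and 18664 to 22619 in those of set B, and the rest of the embryo differed in the same way. The libraries gave 131 (quadruple 2) to 494 (creb3l1 mutant 2) members, with 2974265 to 10959359 UMIs in the sum over members. Among kept barcodes, 539 barcode sequences were found in 2 or more libraries, 7 of them among members, and no pair of libraries shared more than 0.289% of the smaller one. Of the members, 355 (7.09%) were among the highest doublet scores, against 3.48% of all kept barcodes, from 2.29% in quadruple 2 to 12.0% in tyr 2. The share marked in each library was preset, at 0.8% per 1000 kept barcodes, so it grew with library size. The threshold of the scoring tool itself marked 28 of all kept barcodes. Fits without the 355 members are given among the alternatives.

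The rule placed 1725 members with 3 of its 5 genes, 1901 with 4 and 1378 with all 5. Just outside it lay 2279 cells with UMIs in exactly 2 of the 5 genes, and a further 1954 cells were barred by the tailbud genes. Since these genes chose the cells, their levels are description only. Levels are given as CPM, the count scaled to a common library sum over the members (counts per 1e6 UMIs). The T-box gene tbx6, needed for somite borders, averaged 243.0 CPM ± 49.0 (SD, 16 libraries) in members. It stood at 4.75 CPM in all other cells and 4.75 CPM in the barred tailbud cells. msgn1, which drives cells from progenitor to paraxial mesoderm, was at 2625 CPM ± 563 (SD, n = 16), and the clock genes her1 and her7 were at 128.5 CPM ± 36.1 and 445 CPM ± 112. A UMI of tbx16 was seen in 94.6% of members but also in 69.6% of hatching gland cells. For msgn1 the shares were 94.4% and 14.5%, and for her1 67.1% and 1.09%. Hatching gland cells, taken here as barcodes outside the members in which he1.1, he1.2 and ctslb hold at least 1% of UMIs, were deeper (median 23498 to 42698 UMIs).

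Genes that the rule did not use come from the same cells and carry no test. Only genes that averaged at least 20 CPM in members were ranked. By the ratio of CPM + 1 in members to that in all other cells, the muscle determination gene myf5 led at 1030 against 19.4 CPM, a ratio of 50.6. The glutamate receptor gene grin2da (105.3 against 2.04 CPM), the boundary genes mespaa, mespab and ripply2, and the protocadherin gene pcdh8 (381 against 13.7 CPM) were also among the 10 leading genes. Each was higher in members in 16 of 16 libraries, but they were chosen for this ratio, so that is a description. Further down the ranking stood unc45b, a myosin chaperone gene, at 200.2 CPM against 9.85. Of the members, 1742 (34.8%) also held UMIs in 2 or more of myod1, myf5 and myog. Only 887 cells outside the members did so, and these serve below as somite precursors.

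Markers of other tissues were present at low shares of UMIs. The blood and vessel list was not lower than elsewhere, at 0.00310% to 0.0503% of member UMIs against 0.00158% to 0.0399% in all other kept cells. For the notochord, hatching gland, neural, epidermis, lateral plate, endoderm and neural crest lists, the highest member share lay below the highest in other cells. All these lists together ranged from 0.00226% (lateral plate and pronephros, wild type 1) to 0.0938% (epidermis, wild type 2) of the UMIs of members in single libraries. The hatching enzyme gene he1.1 was detected in 8.91% of members, and in 3.66% (tyr 1) to 23.3% (wild type 2) of those of single libraries. It was seen in 8.00% of somite precursors and 9.83% of the barred tailbud cells too. Only 14 members reached the 1% share that defines a hatching gland cell here. UMIs in 2 or more of etv2, tal1 and lmo2, which specify blood and vessels, were found in 241 members (4.82%). Of those 241 cells, 79.7% held meox1 and 48.5% tbx6, against 61.6% and 50.2% of all members. The rule gene msgn1 was held by 78.4% of them, below its share of all members given above. The blood gene gata1a was seen in 0.639% of members.

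The share of members in a library was not called different for any factor. It ran from 4.93% in creb3l1-cr to 10.6% in xbp1+atf6-cr, and the tyr libraries lay at 9.90% and 6.35%. The 5 libraries without atf6 averaged 8.33% ± 1.44 (SD) and the 11 with it 7.36% ± 1.30, the widest gap among the 4 losses and injection. Its two-sided exact permutation p was 0.203, and all 5 values adjusted by Benjamini-Hochberg lay between 0.812 and 0.964. The test permuted over all libraries, without regard to set or to the other losses. In set A the shares were 6.14% to 10.6% and in set B 4.93% to 8.07%.

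**Figure D1:**
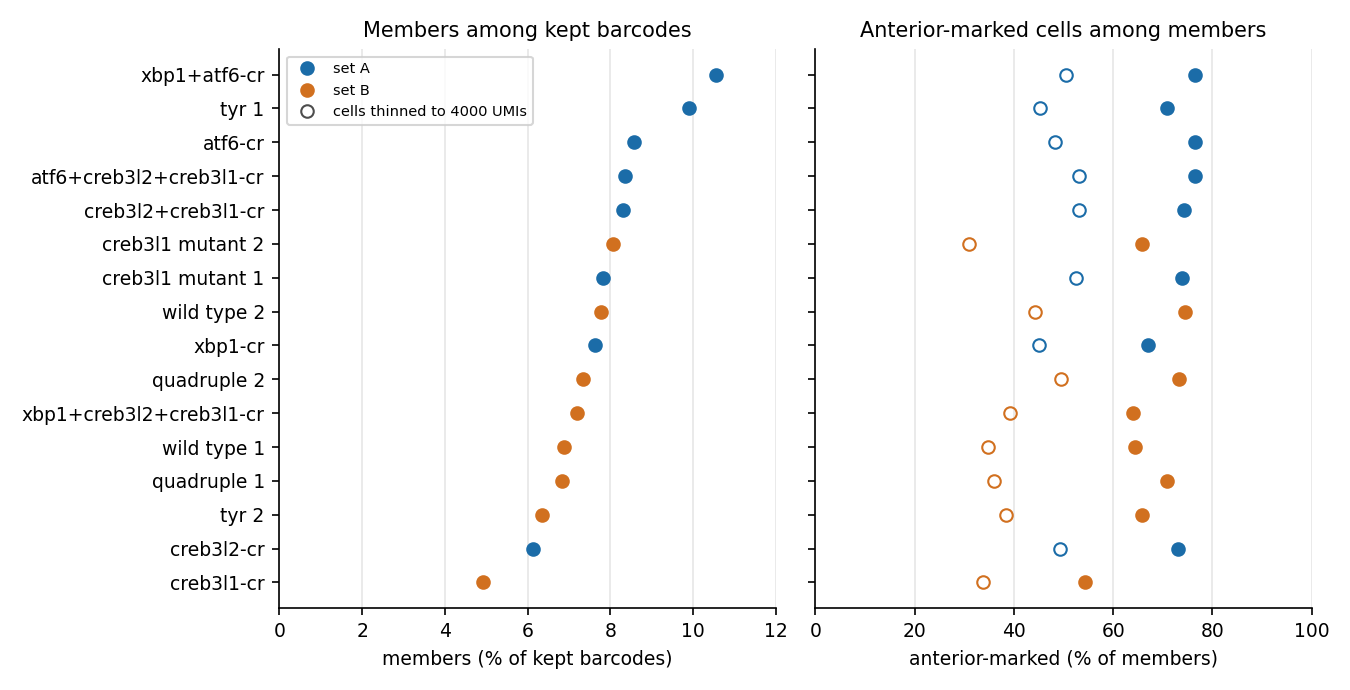
Share of kept barcodes that are members (left, percent) and share of members with a UMI in mespaa, mespab, mespba, mespbb, ripply1 or ripply2 (right, percent), 1 point per library, coloured by set. Open points on the right are the same share after thinning each cell to 4000 UMIs. The member share runs from 4.93% in creb3l1-cr to 10.6% in xbp1+atf6-cr, and thinning lowers the anterior-marked share in every library.

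Levels along the path from tailbud to somite were then read in the members. Among clock and Notch genes, hes6, a partner of the her repressors, was at 1797 CPM ± 400 (SD, n = 16 libraries), from 1135 in wild type 2 to 2358 in tyr 1. The T-box gene tbx16l, which was placed in the clock list, was at 248.6 CPM ± 39.5. nrarpa, a feedback inhibitor of Notch, was at 248.5 CPM ± 85.5. The Notch ligand genes dlc and dld were detected in 71.4% and 76.6% of members, against 2.46% and 5.47% of hatching gland cells. her12 ranged from 75.2 CPM in atf6+creb3l2+creb3l1-cr to 502.5 CPM in xbp1+atf6-cr. For the tailbud genes, the homeobox gene cdx4 was at 1632 CPM ± 228 in members and 2434 CPM in the barred tailbud cells. cyp26a1, which breaks down retinoic acid, was at 99.9 CPM ± 58.3 against 456 CPM. Members of creb3l2-cr had the lowest cyp26a1 (41.2 CPM) and those of quadruple 1 the highest (210.6 CPM). The fibronectin gene fn1b, whose product lines the forming boundary, was at 548 CPM ± 74.9, with pcdh8 at 381 CPM ± 75.5 and fn1a at 306 CPM ± 77.0. Of the somite genes, meox1 stood at 712 CPM ± 292 and tcf15, the epithelial somite gene paraxis, at 474 CPM ± 171. Both were lowest in creb3l1-cr, at 312 and 246.5 CPM. Wnt targets were led by ccnd1 (339.5 CPM ± 86.0), sp5l (107.3 ± 21.6) and lef1 (67.2 ± 13.4), and Fgf targets by the feedback inhibitors spry4 (176.2 ± 30.3) and il17rd (145.0 ± 25.0) and the ETS factor gene etv5b (143.4 ± 23.9).

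Members were divided by whether they held any UMI of the boundary genes mespaa, mespab, mespba, mespbb, ripply1 or ripply2. By this measure 3537 members (70.7%) were anterior-marked, from 54.2% in creb3l1-cr to 76.5% in atf6+creb3l2+creb3l1-cr. Part of them were marked by ripply1 alone. With ripply1 left out, 83 members of wild type 1 were marked in place of 141, and 247 of tyr 1 in place of 271. The share depends on depth, and after thinning each cell to 4000 UMIs, with 125 shallower members left out, it was 30.9% (creb3l1 mutant 2) to 53.1% (atf6+creb3l2+creb3l1-cr). It still differed by set, at 45.1% to 53.1% (median 49.9%) in set A and 30.9% to 49.6% (median 37.1%) in set B. The part of the set in this range was not tested. The sums of both kinds of cell were compared within libraries by edgeR's quasi-likelihood test with the library as a block and the 6 genes left out. Of 10444 genes tested, 2817 (27.0%) were called at a Benjamini-Hochberg adjusted p below 0.05, 1481 higher (14.2%) and 1336 lower (12.8%) in anterior-marked members. Cells without a UMI of the 6 genes are in part cells in which it was missed. After thinning, 1313 of 6900 genes were called. Scaled by library totals in place of TMM, 2844 were called, of which 41.4% were higher, against 52.6% in the fit given here.

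Genes of the segment border and of somites were higher in anterior-marked members. Of 13 segment border genes tested, 10 were higher and 1 lower, with a list median of 0.88 on the log2 scale against -0.01 over all genes tested. aldh1a2, which makes retinoic acid, ran from 37.5 to 280 CPM in anterior-marked members and from 2.98 to 45.0 CPM in the others, and was higher in 16 of 16 libraries. Its log2 fold change was 2.89 (SE 0.13, edgeR adjusted p = 1.19e-15). The adhesion gene pcdh10b rose by 1.75 (SE 0.10), with no overlap between 36.5 to 78.8 CPM and 8.81 to 30.3 CPM. The forkhead gene foxc1b was also higher, by 1.39 (SE 0.08), and the ligand gene fgf17 by 1.19 (SE 0.08). Of 15 somite and muscle genes, 11 were higher and 2 lower, with a median of 1.82. meox1 stood at 486 to 1446 CPM in anterior-marked members and at 36.6 to 314.5 CPM in the others (log2 fold change 2.45, SE 0.08). tcf15 likewise did not overlap, at 356 to 831 CPM against 77.1 to 341 CPM. The muscle genes desma (4.47, SE 0.26) and myog (5.01, SE 0.32) had large folds from low levels, myog at 7.20 CPM ± 4.55 (SD, n = 16) against 0.174 CPM ± 0.338.

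The genes with the smallest p among all tested were partly of these lists. dmrt2a, a gene of left-right and somite patterning, averaged 105.0 CPM ± 36.3 (SD, n = 16) in anterior-marked members and 3.94 CPM ± 2.20 in the others. efemp2b, which codes for an elastic fibre protein, averaged 277 CPM ± 43.1 against 50.1 CPM ± 15.7. actc1a, net1, qkia, kazald2 and zgc:92429 were also among those with the smallest p, as were meox1 and tcf15. Levels of tbx6 and her1, which chose the members, are given without a test. Those of tbx6 stood at 221 to 502 CPM against 9.80 to 60.7 CPM and those of her1 at 105.5 to 234 CPM against 38.6 to 99.2 CPM.

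Posterior genes were lower in anterior-marked members. Of 16 tailbud genes tested, 15 were called lower and none higher, with a median of -1.48. tbxta, the notochord and tailbud T-box gene, lay at 26.1 to 79.2 CPM against 94.5 to 244 CPM, with no overlap, and fell by 1.64 (SE 0.11, edgeR adjusted p = 5.2e-12). The ligand genes wnt8a, fgf8a and bmp4 fell by 1.60 (SE 0.12), 1.60 (SE 0.14) and 1.21 (SE 0.11), and cyp26a1 fell by 1.37 (SE 0.08). The homeobox genes msx1a and ved and the receptor-like bambia were lower too, and ved did not overlap, at 291 to 494 CPM against 567 to 1111 CPM. Of 11 genes of the Wnt list, which holds a Wnt ligand and Tcf factors besides targets, 7 were lower and 2 higher. axin2 and dkk1b fell by 0.65 (SE 0.07) and 1.22 (SE 0.16), while tcf7l1a rose by 0.81 (SE 0.07). The Fgf list, which holds receptor genes besides targets, had 7 of 13 higher and 1 lower, so its count is not one of targets alone. The largest rises named were of the receptor genes fgfr1a (0.91, SE 0.07) and fgfr1b (0.99, SE 0.09). Among targets, spry2 (0.61, SE 0.04), etv5b (0.56, SE 0.05) and il17rd (0.22, SE 0.04) were higher, and the one lower was etv5a (-0.46, SE 0.07).

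Genes of the clock list, tbx16l among them, were split, with 6 of 19 higher and 7 lower. her11 was 74.7 CPM ± 20.6 (SD, n = 16) in anterior-marked members and 14.2 CPM ± 9.88 in the others, without overlap. The ligand gene dlc rose by 0.59 (SE 0.07). Lower were lfng, which modifies Notch, by 0.92 (SE 0.15) on the log2 scale, notch3 (-0.95, SE 0.09) and her15.1 (-0.52, SE 0.07). her15.1 has a near-identical copy, her15.2, between which reads may be split. Among retinoic acid genes, rdh10a rose by 2.10 (SE 0.22) and the receptor gene rargb fell by 1.15 (SE 0.13). Of 17 paraxial transcription factor genes, 8 were higher and 8 lower, among them the Hox genes hoxc6b at 0.63 (SE 0.05) and hoxd10a at -0.96 (SE 0.08). Matrix and adhesion genes were higher in 10 of 20 and lower in 2, hapln1a by 2.89 (SE 0.25) and the versican gene vcana by 1.23 (SE 0.12). Of 27 cell cycle genes, 11 were lower and 4 higher, and the replication helicase gene mcm4 fell by 0.41 (SE 0.05).

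Markers of other cell types moved with this split. Hatching gland genes were higher in anterior-marked members in 6 of 7 tested, he1.1 by 3.20 (SE 0.36) and ctslb by 3.04 (SE 0.33). he1.1 ranged from 3.13 to 500.4 CPM in anterior-marked members and from 1.65 to 172 CPM in the others. ripply1, one of the genes that made the split, was detected in 77.5% of hatching gland cells. When the split left ripply1 out, an alternative added after the values were seen, the direction turned: he1.1 was at -2.54 (SE 0.89, edgeR adjusted p = 0.0337) and ctslb at -2.16 (SE 0.89, adjusted p = 0.0701). With that split 3094 of 10186 genes were called, 2260 of them shared with the 2817, and aldh1a2 (2.55, SE 0.14) and meox1 (2.09, SE 0.09) kept their direction. Blood and vessel genes were higher in 4 of 5, etv2 by 1.76 (SE 0.26), and by 2.57 (SE 0.29) with ripply1 left out. Notochord, neural, pronephros and endoderm genes were lower in 7 of 10, 8 of 11, 4 of 5 and 4 of 6, noto by -2.34 (SE 0.30). The part of these other tissues in the result was not tested.

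**Figure D2:**
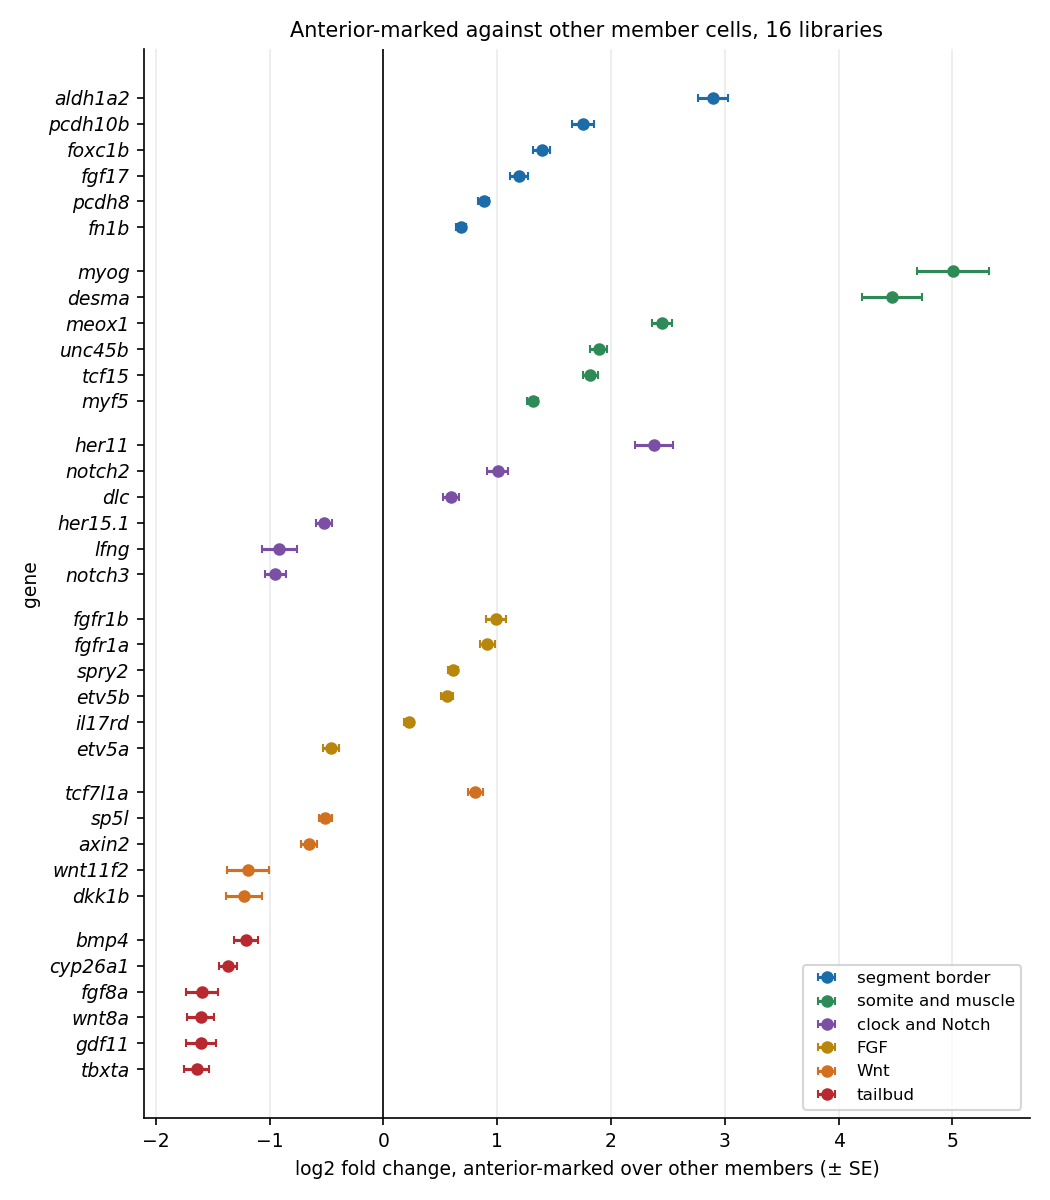
Log2 fold change (x axis, with its SE) of anterior-marked over other members for genes of 6 lists (y axis), from edgeR's quasi-likelihood fit over 16 libraries with the library as a block. Only named called genes are drawn. The segment border and somite genes drawn lie above 0, from fn1b at 0.68 to myog at 5.01, and the tailbud genes drawn below it, from bmp4 at -1.21 to tbxta at -1.64, while those of the clock, Fgf and Wnt lists fall on both sides.

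Muscle genes also varied among members, not independently of the split above. myod1 was detected in 35.9% of members and meox1 in 61.6%, and the cells were grouped by both, after the values had been seen and so without a test. myod1 without meox1 was found in 1097 members (21.9%), meox1 without myod1 in 2386 (47.7%), both in 697 (13.9%) and neither in 824 (16.5%). Median depth was alike, from 15127 to 16833 UMIs. Members with myod1 but not meox1 had the highest msgn1, at 3833 CPM ± 794 (SD, n = 16 libraries) against 2232 CPM ± 489 in those with meox1 alone. They held mef2d, a muscle transcription factor gene, at 387 CPM ± 148 against 43.8 CPM ± 13.5. Their unc45b was at 426 CPM ± 142 against 137.3 CPM ± 24.2, with no overlap between libraries, and their actc1b at 136.1 CPM ± 130 against 2.56 CPM ± 1.87. tcf15 ran the other way, at 92.4 CPM ± 37.8 against 704 CPM ± 198, and so did ripply1 (40.2 CPM ± 14.6 against 259 CPM ± 91.3). Lower too were ripply2 (9.04 against 142.9 CPM) and mespab (56.3 against 175.8 CPM), but not mespaa (100.3 against 81.6 CPM). Of the tailbud genes, tbxta (113.9 against 40.1 CPM), wnt8a (111.7 against 21.0 CPM) and cyp26a1 (153.7 against 54.1 CPM) were higher with myod1 alone. The tailbud gene fgf8a was alike (34.7 against 35.2 CPM). Members with neither gene had the highest tbxta (220.4 CPM ± 81.2) and fgf8a (146.3 CPM) and the lowest tbx6 (12.8 CPM ± 5.64). Across member cells within a library, the correlation of log levels averaged -0.42 for meox1 with myod1 and 0.79 for meox1 with tcf15 over 16 libraries. That of msgn1 with myod1 averaged 0.27 and that of msgn1 with ripply2 -0.41. For the clock genes, her1 with her7 averaged 0.36, her7 with dlc 0.41 and her1 with her15.1 -0.00. These are descriptions over 5004 cells that share their library and its depth. The genes msgn1, tbx6, her1 and her7 also chose the members, so their levels and correlations here depend in part on the rule.

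The targeted genes were read next, to check the labels in these cells. atf6 lay at 4.50 to 7.06 CPM in the members of the 5 libraries without it and at 21.1 to 48.1 CPM in the other 11, without overlap. creb3l2 lay at 1.30 to 2.76 CPM in 6 libraries and at 4.99 to 13.7 CPM in 10, also without overlap. xbp1 overlapped, at 22.7 to 84.7 CPM where lost and 61.5 to 262 CPM where intact. The mRNA of creb3l1 did not follow its labels, at 7.28 CPM ± 3.54 (SD, n = 8) where lost and 5.18 CPM ± 2.08 (SD, n = 8) where intact, so it checks none of them. tyr had 2 UMIs in all members.

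Effects of each loss and of injection were estimated in 1 additive edgeR fit over the 16 libraries, with a term for the set. The biological coefficient of variation was 0.203 on 9 residual degrees of freedom. If no gene changed, a share of about 0.05 of those tested would lie at an unadjusted p below 0.05, here and in later fits. Losing xbp1 called none of 11483 genes (0%), with 663 at an unadjusted p below 0.05 and 5 called by DESeq2. The smallest p belonged to hspa5, which codes for the chaperone BiP, at 21.6 to 48.1 CPM where xbp1 was lost and 29.1 to 93.5 CPM where it was intact. Its log2 fold change was -1.03 (SE 0.17, edgeR adjusted p = 0.314). xbp1 itself was at -1.52 (SE 0.35, adjusted p = 0.625). her15.1, in the clock list, was at 0.71 (SE 0.14, adjusted p = 0.467), and mettl7a at 4.12 (SE 0.76), from 42 UMIs in all. None of 127 secretory genes was called, with 92 below 0 and a median of -0.12 against -0.00 over all genes. Losing atf6 called 1 gene (0.00871%), atf6, at -2.57 (SE 0.18, adjusted p = 7.77e-06), with 420 genes at an unadjusted p below 0.05. Losing creb3l2 called none, with 658 at an unadjusted p below 0.05 and 4 called by DESeq2. creb3l2 had the smallest p, at -2.29 (SE 0.35, adjusted p = 0.112). dand5, an inhibitor of Nodal signals, followed from 83 UMIs in all. Of these, 28 were in xbp1-cr, 27 in creb3l1-cr and 20 in creb3l1 mutant 2. drl was at -1.87 (SE 0.33, adjusted p = 0.172).

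Embryos without all 4 factors were set against tyr crispants in a fit of the 8 libraries of the replicated groups, with a term for the set. None of 10973 genes was called (0%), with 624 at an unadjusted p below 0.05 and 34 called by DESeq2. The smallest adjusted p was 0.0501, shared by rimbp2 and si:ch211-114n24.6. rimbp2 held 111 and 109 UMIs in the quadruple libraries and 0 and 1 in the tyr libraries, and it also held 14 and 161 in the creb3l1 mutants, which share the line. si:ch211-114n24.6 stood at 357 and 449 CPM in quadruple, 119 and 50.1 CPM in tyr, and 464 and 275 CPM in the creb3l1 mutants. atf6 (-2.49, SE 0.26, adjusted p = 0.0644), creb3l2 (-2.39, SE 0.43) and xbp1 (-1.77, SE 0.55) were lower without passing the test. Of 126 secretory genes, 101 lay below 0, with a median of -0.37 against 0.01 over all genes and none called. On 3 residual degrees of freedom this comparison is the least precise here.

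Losing creb3l1 called 61 genes (0.531%), 7 higher (0.0610%) and 54 lower (0.470%). The clearest was zgc:56585, at 0.336 to 1.72 CPM (median 0.912) in the 7 libraries of the mutant line and 7.02 to 34.8 CPM (median 22.3) in the 8 intact ones, with creb3l1-cr between them at 4.30 CPM. Its log2 fold change was -3.66 (SE 0.43, edgeR adjusted p = 0.00363). gstk1, a glutathione transferase gene, was at 1.19 to 5.30 CPM in the line, 2.97 CPM in creb3l1-cr and 4.13 to 29.7 CPM in the intact libraries (-2.62, SE 0.31). The acyl-CoA binding gene dbi was at 120 to 234 CPM in the line, 210.8 CPM in creb3l1-cr and 207 to 521 CPM in the intact libraries (-1.01, SE 0.14). gtf2f1, a subunit of general factor TFIIF, was at 34.7 to 90.2 CPM in the line and 102 to 165 CPM in the intact libraries. The creb3l1-cr library lay at 129 CPM, inside the intact range. Also among the 10 most clearly lower were znrd2, mboat7, zgc:114045, ss18l2, mpdu1b and si:ch73-256j6.4. The last held 1 UMI over the 7 line libraries, 0 in creb3l1-cr and 102 over the 8 intact ones.

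The 7 higher genes were led by the cadherin gene cdh6, at 13.6 to 65.2 CPM in the line, 49.9 CPM in creb3l1-cr and 7.82 to 35.2 CPM in the intact libraries (1.103, SE 0.15, edgeR adjusted p = 0.00509). ahcy, which breaks down S-adenosylhomocysteine, did not overlap, at 69.9 to 87.2 CPM in the line and 37.0 to 50.8 CPM in the intact libraries, with creb3l1-cr between at 62.5 CPM. The others were si:dkey-16p6.1, hipk3b, dus1l, atp5mea and csf1a. No gene of the clock, segment border, somite, tailbud, Wnt, Fgf or secretory lists was among the 61, and with 0.531% of all genes called nothing is read from that.

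The line and the crispant differ in how they lost creb3l1, and their values are set side by side. Of the 61 called genes, 32 (52.5%) showed no overlap between the 7 line libraries and the 8 intact ones, against 176 (1.53%) of all 11483 tested. The called genes were chosen for this difference, so the count is a description. The creb3l1-cr library lay beyond the intact range on the side of the line for 36 of the 61 and within the intact range for 25. Of all genes tested it lay beyond the intact range, on the side of the fitted change, for 27.2%, and creb3l1-cr entered that fit. Of the 53 called genes placed by the RefSeq table of assembly GRCz12tu, 8 (15.09%) are on the chromosome of creb3l1, as are 5.38% of the 10191 tested genes placed. The effect of line background was not tested. This list depends on single libraries. It had no call without creb3l2-cr, 15 without wild type 2, 18 without creb3l1 mutant 1, 23 without creb3l1 mutant 2, 25 without creb3l2+creb3l1-cr and 27 without atf6+creb3l2+creb3l1-cr. It had 36 without xbp1-cr, 37 without xbp1+atf6-cr, 93 without wild type 1, 122 without creb3l1-cr and 135 without tyr 2.

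**Figure D3:**
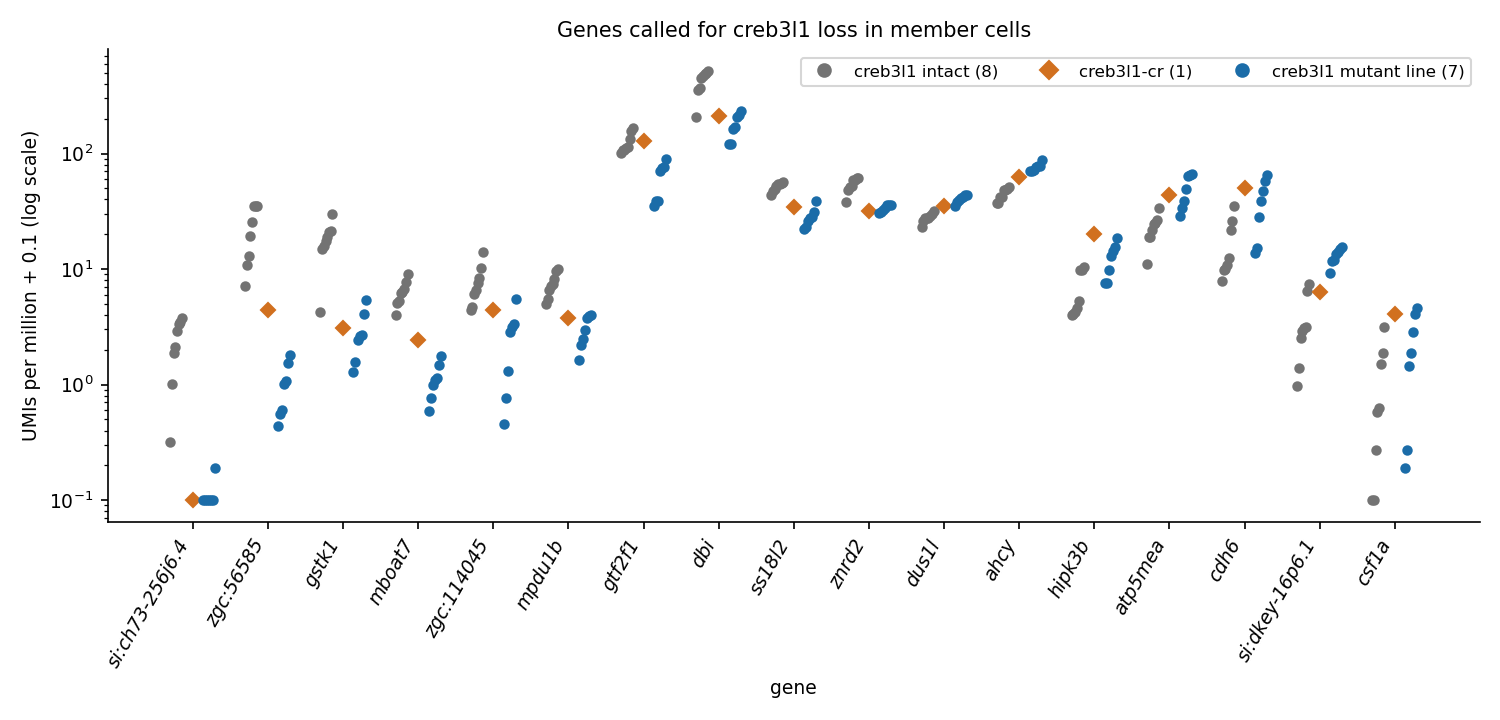
CPM plus 0.1 (log axis) in the members of each library for the 17 named genes called for creb3l1 loss, ordered by fold change, with the 8 intact libraries in grey, creb3l1-cr as a diamond and the 7 libraries of the mutant line in blue. zgc:56585 and ahcy show no overlap between line and intact libraries, and creb3l1-cr lies between them, whereas for gtf2f1 it lies at 129 CPM inside the intact range.

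Injection gave the clearest response of members to treatment. It called 57 genes (0.496%), 55 higher (0.479%) and 2 lower (0.0174%), and genes of a list of p53 targets were among the clearest. Cas9 acts by making DNA breaks, but the part of such breaks in this response was not tested. phlda3, which restrains Akt, was at 4.34 to 7.39 CPM in the 4 libraries not injected and at 76.3 to 262 CPM (median 152) in the 12 injected ones. Its log2 fold change was 4.00 (SE 0.25, edgeR adjusted p = 1.51e-06). ccng1, the cyclin G1 gene, was at 222 to 473 CPM against 1717 to 4824 CPM (2.54, SE 0.21). mdm2, a ubiquitin ligase gene, averaged 17.7 CPM ± 2.05 (SD, n = 4) against 175.4 CPM ± 70.8 (SD, n = 12) (2.54, SE 0.24). The ribosomal protein gene rps27l lay at 113 to 163 CPM against 646 to 1636 CPM (2.61, SE 0.22), the apoptosis gene casp8 at 2.39 to 4.197 CPM against 25.7 to 93.3 CPM (3.38, SE 0.28), and foxo3b at 1.09 to 2.46 CPM against 10.4 to 52.6 CPM (3.38, SE 0.32). None of these overlapped, but the genes were named because they were called for injection, so this is a description. The share of all genes tested without overlap was not counted. The 2 tyr libraries, at 81.0 and 76.3 CPM of phlda3, were the lowest of the injected ones.

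Of 17 genes of the p53 target list tested, 14 were higher and none lower, with a list median of 2.57 against -0.01 over all genes tested. The list was chosen with earlier results of these data known, so its count and median are a description. pmaip1 did not overlap, at 10.6 to 19.6 CPM against 27.4 to 50.1 CPM, but did not pass the test (0.77, SE 0.17, adjusted p = 0.0910). btg2 (0.21, SE 0.16) and gadd45ab (0.06, SE 0.49) did not pass. Others among the 10 clearest were lnx1, mat2al, rspo1, cabz01020840.1 and si:dkey-40h20.1. The ligand gene rspo1, which raises Wnt signals, was at 0.274 to 1.09 CPM against 7.58 to 22.8 CPM (4.33, SE 0.40). The lower genes were zeb2a, a repressor of the epithelial state (-0.67, SE 0.13, adjusted p = 0.0327), and the integrin gene itga10 (-1.79, SE 0.36, adjusted p = 0.0418), and both overlapped.

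No gene of the clock, segment border, somite, tailbud, Wnt or Fgf lists was called for injection, and with 0.496% of all genes called nothing is read from that. tbx6 was at 239 CPM ± 50.9 (SD, n = 12) with injection and 254 CPM ± 47.9 (SD, n = 4) without, as a description. myf5 was at 1088 CPM ± 379 and 856 CPM ± 309. Injection and genotype are partly joined, since every library without xbp1, atf6 or creb3l2 was injected. With tyr against wild type alone, which differ in injection and in the tyr guides, 5 genes were called. Without creb3l1-cr the count over all libraries was 28.

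**Figure D4:**
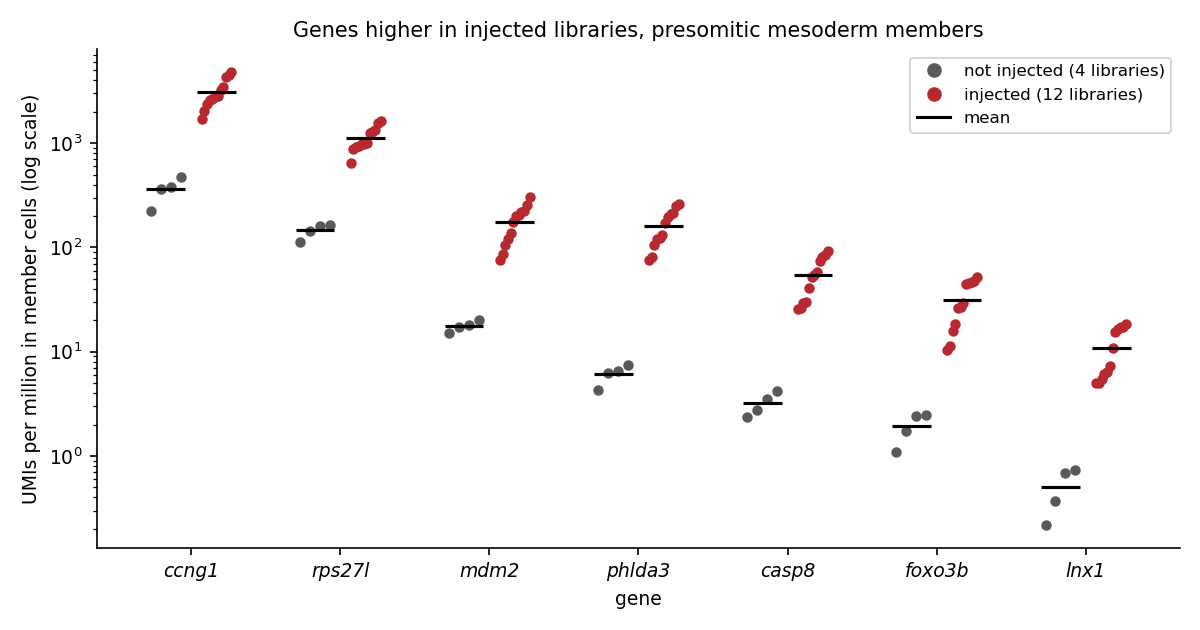
CPM (log axis) of 7 genes in the members of each library, grey for the 4 libraries not injected and red for the 12 injected, with the mean as a line. Groups do not overlap for any of the 7, as for phlda3 at 4.34 to 7.39 CPM against 76.3 to 262 CPM. The 7 were drawn from the genes called for injection in these libraries, so the lack of overlap is a description.

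The responses of members were set against those of other tissues of the same libraries, by the interaction of tissue with each term and the library as a block. Between members and somite precursors, no gene differed in its change with xbp1 loss (0% of 11132, 378 at an unadjusted p below 0.05, 0 by DESeq2) or with injection (0%, 360 at an unadjusted p below 0.05, 0 by DESeq2). The smallest adjusted p was 1 in both. The 3 genes with the smallest p for xbp1 loss were foxd1 (5.05, SE 1.18), her15.2 (-0.64, SE 0.16) and zgc:174154 (3.66, SE 0.98). For injection they were foxi3a (-5.25, SE 1.07), her6 (-0.92, SE 0.22) and nsl1 (-0.93, SE 0.23). Somite precursors numbered 19 to 114 cells per library. By the same muscle genes 1742 members (34.8%) would also count, so both sums hold cells alike in these markers. The lack of calls therefore cannot show that both tissues respond alike.

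Against hatching gland cells, 539 of 11332 genes (4.76%) differed in their change with xbp1 loss, 476 higher in members (4.2%) and 63 lower (0.556%). Secretory genes made up 99 of the 476, of 131 tested, with a median difference of 1.33 against -0.01 over all genes. Scaled by library totals in place of TMM, 602 genes were called, 400 higher and 202 lower, with a median over all genes of -0.11. Without xbp1-cr 358 genes were called, and without xbp1+atf6-cr 359. sec61b, a subunit of the translocation channel, stood at 252 to 332.5 CPM in members without xbp1 and 273 to 614 CPM in members with it. In hatching gland cells it stood at 408 to 1203 CPM and 2664 to 5919 CPM. Its log2 fold change was -0.35 (SE 0.13) in members and -2.72 (SE 0.21) in hatching gland cells, and the difference was 2.43 (SE 0.17, edgeR adjusted p = 1.71e-07). The difference was 2.06 (SE 0.14) for ssr4 and 1.91 (SE 0.13) for ssr3, parts of the translocon. For the Golgi GTPase gene arf5 members lay at 249 to 318 CPM and 234 to 345 CPM, a log2 fold change of -0.00 (SE 0.08), against -1.35 (SE 0.12) in the gland. hspa5 also differed, by 1.64 (SE 0.25), from -1.03 in members and -2.59 in the gland.

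Of 17 heat shock genes tested, 7 were called lower in members and none higher, with a list median of -0.29, and 4 of the 7 are hsp70 copies. Among those not called, hspb1 was at 0.22 (SE 0.15) and hspa8 at -0.10 (SE 0.07). hsp70.3 lay at 0.460 to 4.14 CPM in members without xbp1 and 10.8 to 696 CPM in hatching gland cells without it. With xbp1 those ranges were 0.913 to 14.9 CPM and 2.48 to 53.5 CPM, and the difference was -5.96 (SE 0.35). hsp70.1, hsp70.2, hsp70.3 and hsp70l are near-identical copies, between which reads may be split. Patterning genes are not compared here, since many are close to absent in the gland, as tbx16l was at 0 to 5.57 CPM.

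**Figure D5:**
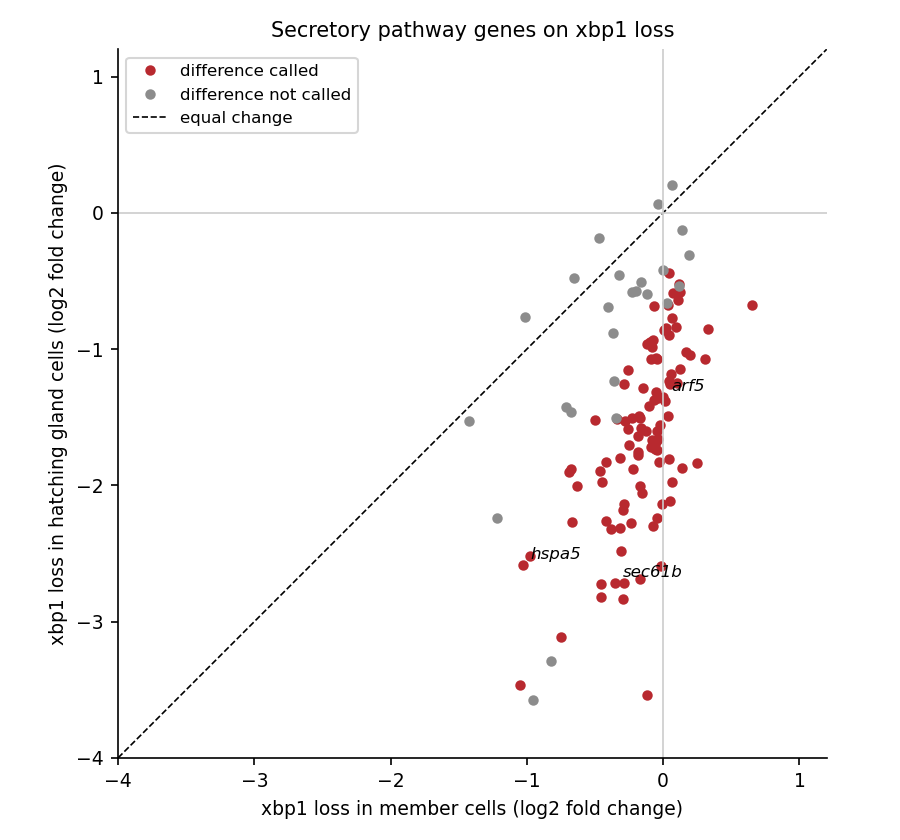
Log2 fold change on xbp1 loss in members (x axis) and in hatching gland cells (y axis) for the 124 secretory genes with both values, in red where the difference was called (99 genes). Points spread down to -3.57 on the y axis, and those in red lie below the dashed line of equal change, with sec61b at -0.35 on the x axis and -2.72 on the y axis.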

How the data were processed

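Cells of whole zebrafish embryos were counted by the authors with Cell Ranger, 3.1.0 in the 8 libraries of set A and 6.1.2 in the 8 of set B, per the file headers, and the deposited values are UMI counts per gene and barcode. The genome build is not given in the sources used here. Features that share a symbol were summed (27597 features, 26847 symbols). Of 10 libraries labelled 8 hpf, 6 with files were not used. The other 4, and 4 more at 12 hpf of a further batch that include a tyr and an xbp1 crispant, were not analysed here.

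Barcodes with at least 1000 UMIs and at most 10% mitochondrial UMIs were kept. Counts were summed per library over the member cells and tested with edgeR 4.0.16 (quasi-likelihood test, TMM, its filter on low counts) in R 4.3.3, with Benjamini-Hochberg adjustment over all genes tested and a call below 0.05. SE is the absolute log2 fold change divided by the square root of F. DESeq2 1.42.0, library totals, no filter, 4 markers in place of 3, leaving out the highest doublet scores (Scrublet in scanpy 1.11.5) or each library, other terms and a replicate block were alternatives. Shares were compared by two-sided exact permutation tests over libraries (Python 3.11.15). The fits were tested on simulated data. Shares and sums carry counting error and the spread between libraries, and the deeper sums are the more precise.

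The members and gene lists were chosen with earlier results of these data known. Genes named are the targeted genes, the 10 called genes with the smallest p in each direction (all where at most 20 were called, the 3 with the smallest p where none was), up to 6 called genes of each list, and, for levels, the 3 genes of a list with the highest mean. Others were named after their values were seen. Some genes that this rule names are not reported here.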

Additional observations from a re-analysis of the deposited data

Results flagged for a closer look

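The change on xbp1 loss differed between members and hatching gland cells of the same libraries for the genes below. The test was the interaction term of edgeR's quasi-likelihood fit, and these genes were named because it called them. Values are the log2 fold change in members minus that in the gland. The genes higher in members with the smallest p were arf5 (1.36), ssr3 (1.91), dad1 (1.61), ssr4 (2.06), fkbp2 (1.64), dnajc1 (1.61), sec61b (2.43), sec11a (1.29), ppib (1.59) and selenof (1.46). All but dnajc1 and selenof are in the secretory list. Heat shock genes that differed the other way included hsp70.3 (-5.96), hsp70l (-12.45), hsp70.1 (-11.94), hsp70.2 (-11.15), dnajb1b (-3.38) and hsp90aa1.2 (-2.31). hsp70l had 0 to 1.68 CPM in members and 3.33 to 484 CPM in the gland where xbp1 was lost, and 0 to 3.39 CPM and 0 to 2.11 CPM where it was intact, so the size of its fitted fold depends on the prior count. The fitted folds of its near-identical copies hsp70.1 and hsp70.2 are of the same order, and their size is not read here either. Other genes lower in members were romo1 (-0.91), cabz01080568.1 (-2.33), emc3 (-1.09) and rsrp1 (-1.06). Named from the lists were tbx16l (5.07), acta1b (-3.62), atf6 (1.49), pmaip1 (1.72) and chac1 (0.79). tbx16l was at 0 to 5.57 CPM in the gland, so its fitted value is no measure of size.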

How the results depend on the processing

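Without the filter on low counts, the calls were 204 for xbp1 loss, 82 for atf6 loss, 430 for creb3l1 loss, 131 for creb3l2 loss, 256 for injection, 329 for quadruple against tyr, and 36 and 51 for the differences from somite precursors with xbp1 loss and injection. DESeq2 called 5 genes for xbp1 loss, 5 for atf6 loss, 184 for creb3l1 loss, 4 for creb3l2 loss and 34 for quadruple against tyr. The creb3l1 count was 40 with library totals, 21 without the set term, 103 without the injection term and 126 with the stable line in a term apart from the crispant. creb3l2 loss had 1 call without the injection term, tyr against wild type alone gave 5, quadruple against tyr gave 2 with at least 4 markers, and the anterior comparison gave 1313 after thinning. The causes were not tested. The stable line term, tyr against wild type alone and the split without ripply1 were chosen after seeing the data. Leaving out each library gave 0 to 1 calls for xbp1 loss, 1 to 2 for atf6, 0 to 135 for creb3l1, 0 to 1 for creb3l2, 28 to 82 for injection, 0 to 2 for quadruple against tyr, 2631 to 2801 for the anterior comparison, 0 to 0 and 0 to 1 for xbp1 loss and injection against somite precursors, and 358 to 567 against the hatching gland, where 358 was without xbp1-cr and 359 without xbp1+atf6-cr.

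Differences in the share of members, in percentage points, ran from -0.304 to 0.629 for xbp1, 0.411 to 1.34 for atf6, -0.884 to -0.252 for creb3l1, -0.815 to -0.189 for creb3l2 and -0.224 to 0.287 for injection when each library was left out. That for injection turned to -0.103 with at least 4 markers and -1.05 within set B, and that for creb3l2 to 0.319 within set B. The creb3l1 gene itself turned to 0.073 with at least 4 markers, 0.068 without the set term and 0.22 with the stable line term, and ran from -0.24 to 0.22 when each library was left out, above 0 without tyr 2 (0.01) and without creb3l1-cr. In the anterior comparison msgn1 turned to -0.26 and cd63 to -0.17 after thinning, and with ripply1 left out of the split msgn1 turned to -0.23, ctslb to -2.16, he1.1 to -2.54, he1.2 to -1.68, agr2 to -1.65 and cd63 to -0.48. zgc:174154 ran from -0.19 (without tyr 2) to 4.81 when each library was left out. Of the other values of single genes, 4229 kept their direction and side of the threshold, 229 no longer passed and 32 newly passed. With a replicate block, quadruple against tyr had 0 calls. Correlations of the replicate differences between groups ran from -0.37 to 0.47. The replicates of tyr and of creb3l1 mutant also differ in set, so these values cannot decide whether the replicate numbers pair the libraries. Somite precursors numbered 19 to 114 and hatching gland cells 25 to 121 per library.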
